A study of Homo sapiens with 16 samples.

Results

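The EGF receptor family and its ligands are described here across 4 groups of HCT116 cells, an established human colon cancer line, from RNA sequencing of total RNA. The 8 genes, of 63652 in the files, were taken by symbol: the receptors EGFR, ERBB2 and ERBB3 and the ligands EREG, AREG, HBEGF, TGFA and BTC. Inhibitor cells received 0.5 µM BIX 01294 trihydrochloride hydrate, a small-molecule inhibitor of the histone H3 lysine methyltransferase G9a (gene EHMT2), for 72 h, and were set against inhibitor control cells. siRNA cells were transfected with 10 nM G9a siRNA with Lipofectamine RNAiMAX for 72 h, and were set against siRNA control cells. The sources used here do not say what either control received. Each of the 4 groups had 2 libraries, and each library had 2 sequencing runs, which were averaged into 1 value (n = 2 libraries per group throughout). The design text calls the replicates biological without saying whether they were separate cultures, so p-values here rest on a spread between libraries that may be only technical.

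Receptors of this family sit in the plasma membrane as tyrosine kinases that pair up when a ligand binds, and they signal chiefly through RAS and the MAP kinases and through PI3-kinase. Ligands are made as membrane-anchored precursors and are released by shedding enzymes, so a cell can stimulate itself or its neighbours. ERBB2 has no known soluble ligand and acts as a partner, and ERBB3 has little kinase activity of its own. In colon cancer, antibodies against EGFR are a treatment, and epiregulin (EREG) and amphiregulin (AREG) are the ligands most often measured beside it.

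Values are FPKM, fragments per kilobase and per 1000000 mapped fragments, scaled between libraries, so levels of different genes can be compared per length. Averaged over the 8 libraries, EREG stood at 11.7 FPKM, ERBB2 at 9.37, EGFR at 4.66, ERBB3 at 4.60, HBEGF at 2.76, TGFA at 2.14, AREG at 0.924 and BTC at 0.871. EREG led ERBB2 in every library of 3 groups, but in both inhibitor controls ERBB2 was above EREG. Neighbours in this order overlapped in their libraries except ERBB2 and EGFR, and TGFA and AREG. AREG and BTC did not reach the mean deposited level of 1 FPKM needed to enter the test, which left 6 of the 8 genes tested among 12846 genes. A difference is called where limma's adjusted p was under 0.05. In bulk RNA, fewer cells expressing a gene and less of its RNA per cell cannot be told apart.

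The siRNA's target was checked first. EHMT2 was at 4.67 and 4.54 FPKM in siRNA libraries, against 15.9 and 17.8 FPKM in siRNA controls, so that it fell by 1.67 on the log2 scale (limma adjusted p = 0.000276; the standard error was 0.09, as ± gives it below). In inhibitor libraries it was at 19.7 and 18.9 FPKM, against 24.7 and 21.0 FPKM in inhibitor controls (log2 fold change -0.23 ± 0.09, limma adjusted p = 0.0823). That value ran from -0.34 to -0.12 over 12 alternatives, of which 1 gave a call. EHMT2 was also lower in siRNA controls than in inhibitor controls, by -0.42 ± 0.09 (limma adjusted p = 0.00738). Inhibitor libraries set against siRNA controls gave 0.19 ± 0.09 (limma adjusted p = 0.445). The inhibitor controls stood apart from the other libraries: they correlated at 0.957 to 0.974 with those of other groups over all tested genes, against 0.985 to 0.995 among the other 6. Implied depth ran from 4.204 to 13.456 per library, in units of 1000000 fragments, lowest in siRNA control replicate 2 and inhibitor control replicate 2. Of 8 epithelial markers 7 averaged at least 1 FPKM. EPCAM averaged 81.5 FPKM, KRT8 193, KRT18 169, KRT19 232, CLDN4 10.8, CLDN3 1.39 and CDH1 1.03, and VIL1 averaged 0.233. The summed level, mostly of keratins, was 698 to 716 FPKM in inhibitor libraries and 759 to 765 in inhibitor controls. It was 641 to 656 in siRNA libraries and 638 to 641 in siRNA controls. EPCAM, CDH1, KRT8 and KRT18 had higher means in inhibitor controls than in inhibitor libraries. KRT19, CLDN3, CLDN4 and VIL1 had lower ones (for KRT19, 209 against 241 FPKM). Of 8 fibroblast markers only COL1A1 averaged at least 1 FPKM, FAP and LUM were at 0 in all libraries, and the summed level was 1.75 to 3.75 FPKM.

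The share of all genes called was larger in each comparison that uses the inhibitor controls than in the others. limma called 36.4% of the tested genes between inhibitor and inhibitor control, 2.15% between siRNA and siRNA control, 38.2% between siRNA control and inhibitor control, and 0.0545% between inhibitor and siRNA control. The difference between the 2 treatment effects was called for 11.8%. Comparisons that use the same control libraries are not independent of each other.

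EREG lies in a cluster of ligand genes on chromosome 4. In hg19, the build of the files, its locus spans chr4:75230860-75254468, and relative to its start the loci of EPGN, AREG, AREGB and BTC begin at -56.7, 80.0, 249.8 and 439.1 kb. The neighbours EREG and AREG differed in level. Whether their patterns over the groups differ, and any cause in the promoters, was not tested. The 250 bases before each start, taken from RefSeq on GRCh38.p14, are printed for comparison (EREG at chr4:74364895-74365144 and AREG at chr4:74444886-74445135, both on the plus strand). Capitals mark TATAAA and TGACGTCA.
EREG: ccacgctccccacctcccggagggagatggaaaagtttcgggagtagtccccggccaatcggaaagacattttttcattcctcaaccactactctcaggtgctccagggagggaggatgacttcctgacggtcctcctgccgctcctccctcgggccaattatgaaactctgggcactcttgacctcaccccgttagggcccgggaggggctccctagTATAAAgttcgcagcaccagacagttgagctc
AREG: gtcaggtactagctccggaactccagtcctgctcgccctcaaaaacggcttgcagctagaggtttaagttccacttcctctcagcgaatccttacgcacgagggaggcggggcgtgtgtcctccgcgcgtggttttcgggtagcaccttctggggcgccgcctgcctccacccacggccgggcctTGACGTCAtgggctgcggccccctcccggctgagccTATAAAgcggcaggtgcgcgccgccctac
TATAAA, the core of a TATA box, occurs 32 bases before the EREG start and 29 bases before the AREG start, and in 10.7% of 35116 promoters on either strand. TGACGTCA, the full cyclic-AMP response element, occurs 65 bases before the AREG start and not in the EREG window, and in 1.65% of promoters. The other motifs searched on both strands were CCAAT, with 2 matches for EREG and none for AREG (32.0% of promoters), GGGCGG, with none for EREG and 1 for AREG (42.6%), and TGANTCA, with none in either (6.57%). The EREG window holds 11 CpG dinucleotides, equal to the median of all promoters, and the AREG window holds 23. A match is a description of letters only. RefSeq promoter entries were matched for 7 of the 8 genes, all but ERBB3.

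EREG, the ligand epiregulin, was the member that passed the test with both treatments. It was at 11.5 and 11.8 FPKM in inhibitor libraries, against 8.58 and 8.23 FPKM in inhibitor controls. It was at 17.3 and 15.8 FPKM in siRNA libraries, against 10.6 and 9.94 FPKM in siRNA controls. In both pairs each treated library lay above each of its controls, and the siRNA libraries were the highest of the 8. Relative to its own control EREG rose by 0.43 ± 0.08 on the log2 scale with the inhibitor (95% interval 0.25 to 0.60, limma adjusted p = 0.00322), a ratio of mean FPKM of 1.38. With the siRNA it rose by 0.64 ± 0.08 (95% interval 0.46 to 0.81, limma adjusted p = 0.0145), a ratio of 1.61. It was thus the 1 of 6 tested members called higher in each, where 17.6% of all genes were called higher with the inhibitor and 0.802% with the siRNA.

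**Figure D1:**
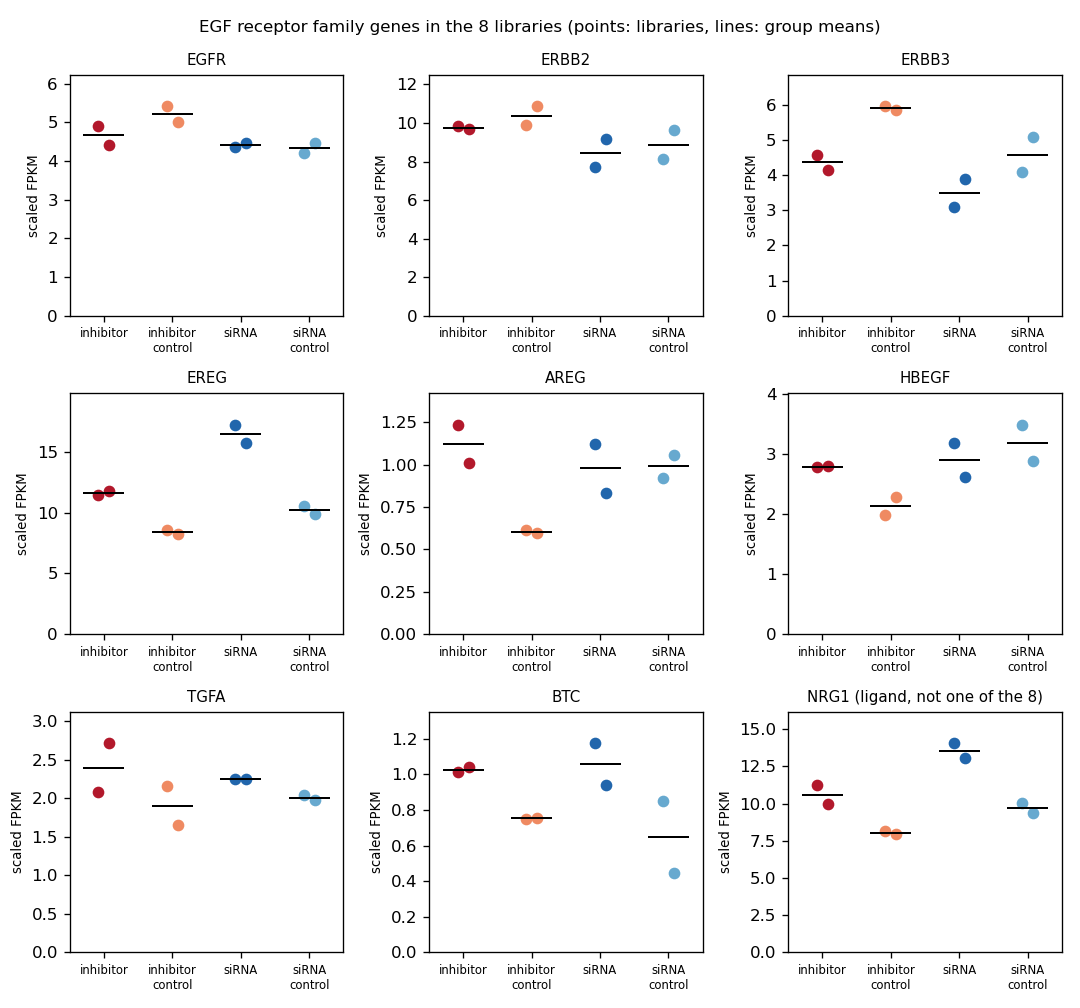
Scaled FPKM of the 8 genes and of the related ligand NRG1 in every library, by group; points are libraries and black lines are group means, with each panel on its own axis from 0. EREG and NRG1 sit highest in the siRNA libraries and lowest in the inhibitor controls, and neither treatment difference of EGFR or ERBB2 was called.

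EREG also differed between the controls. The siRNA controls were above inhibitor controls by 0.26 ± 0.08 on the log2 scale (limma adjusted p = 0.0282), a call kept in 5 of 12 alternatives. Without scaling the value was 0.14 (limma adjusted p = 0.449), and in the second run alone it was 0.18 (0.265). Set against siRNA controls instead, the inhibitor libraries differed by 0.17 ± 0.08, with a 95% interval of -0.01 to 0.34 (limma adjusted p = 0.425), and both inhibitor libraries still lay above both siRNA controls. The difference between the 2 treatment effects on EREG was -0.21 ± 0.11 (inhibitor minus siRNA, limma adjusted p = 0.258), so the effects were not shown to differ. The inhibitor call was kept under all 12 alternatives, with log2 fold changes of 0.39 to 0.50. The siRNA call was kept in 6 of 12, with log2 fold changes of 0.57 to 0.70 and adjusted p from 0.0128 to 0.112. Leaving out siRNA replicate 1 gave an adjusted p of 0.0972, and leaving out siRNA control replicate 2 gave 0.112 (limma).

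Repeated sequencing of the same libraries gave similar EREG values. The second run was 0.809 to 1.103 times the first over the 8 libraries, and the Cufflinks intervals imply 285 to 1184 fragments per library, the most of the 8 genes. In the siRNA libraries the 4 runs gave 17.1, 16.9, 14.5 and 13.2 deposited FPKM, against 11.1, 10.3, 10.2 and 8.23 in the siRNA controls. No run of an siRNA library reached down to a run of an siRNA control.

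**Figure D2:**
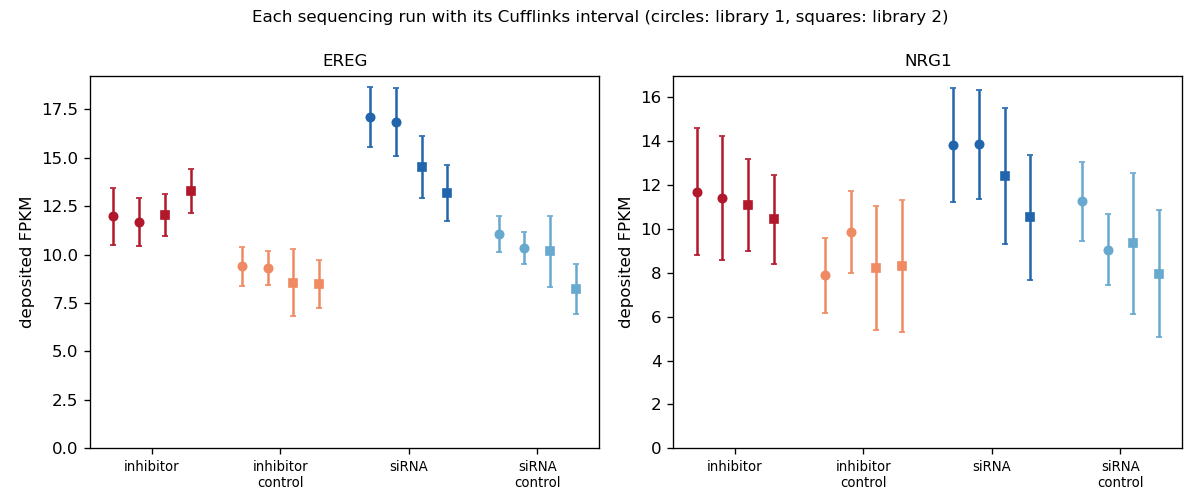
Deposited FPKM of EREG and NRG1 in each of the 16 sequencing runs with the 95% interval that Cufflinks gave; circles are runs of library 1 and squares runs of library 2 of a group. All 4 siRNA runs of EREG lie above all 4 siRNA control runs, from 13.2 to 17.1 against 8.23 to 11.1 FPKM, and intervals are wider for NRG1.

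AREG, amphiregulin, was low (hg19 locus chr4:75310851-75320726). It was at 1.24 and 1.01 FPKM in inhibitor libraries, against 0.612 and 0.597 FPKM in inhibitor controls. siRNA libraries had 1.12 and 0.834 FPKM, against 0.921 and 1.06 FPKM in siRNA controls. The inhibitor controls were thus the 2 lowest libraries, and the siRNA pair overlapped. Only 4.2 to 32.7 fragments per library are implied, and the second run was 0.695 to 2.90 times the first. With no filter on low values, limma gave AREG a log2 fold change of 0.40 ± 0.13 for inhibitor against inhibitor control (adjusted p = 0.145) and -0.01 ± 0.13 for siRNA against siRNA control (adjusted p = 1). The AREG value with the siRNA was 0.23 in the first run alone and -0.23 in the second. AREGB, a near-identical copy that can share reads with AREG, was at 0.0563 to 0.321 FPKM, so the AREG values are uncertain. With both entries summed, the log2 fold change for inhibitor against inhibitor control was 0.44 and was called (limma adjusted p = 0.033). That for siRNA control against inhibitor control, also 0.44 on the log2 scale, was called as well (limma adjusted p = 0.0325).

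BTC, betacellulin, was likewise low (chr4:75669969-75719896). It was at 1.01 and 1.04 FPKM in inhibitor libraries, against 0.750 and 0.756 FPKM in inhibitor controls. siRNA libraries had 1.18 and 0.942 FPKM, against 0.849 and 0.444 FPKM in siRNA controls. Neither pair overlapped, but the deposited values imply only 5.2 to 50.3 fragments per library. With no filter on low values, limma gave 0.21 ± 0.15 with the inhibitor (adjusted p = 0.551) and 0.33 ± 0.15 with the siRNA (adjusted p = 0.485). Neither difference was called under that fit. Few fragments are implied for both AREG and BTC, and whether depth limits them was not tested. The BTC value with the siRNA was 0.51 when siRNA control replicate 1 was left out and 0.15 when replicate 2 of that group was. At a pseudocount of 0.1 it was 0.68, and 0.40 with the inhibitor.

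HBEGF, a ligand that also binds heparin (chr5:139712428-139726216), was at 2.79 and 2.80 FPKM in inhibitor libraries, against 1.99 and 2.28 FPKM in inhibitor controls. siRNA libraries had 3.20 and 2.61 FPKM, against 3.50 and 2.90 FPKM in siRNA controls. The inhibitor pair did not overlap and the siRNA pair did. Neither treatment difference was called: 0.27 ± 0.13 with the inhibitor (limma adjusted p = 0.131) and -0.10 ± 0.13 with the siRNA (limma adjusted p = 0.697). The controls did differ, with siRNA controls above inhibitor controls by 0.42 ± 0.13 (limma adjusted p = 0.0323). HBEGF and EREG were the 2 of 6 tested members called higher in that comparison, where 19.2% of all genes were called higher. Both calls were lost when either inhibitor control or siRNA control replicate 1 was left out, with adjusted p from 0.0683 to 0.121 for EREG and from 0.059 to 0.164 for HBEGF (limma). The HBEGF call was kept in 5 of 12 alternatives, with a value of 0.32 without scaling (limma adjusted p = 0.142) and 0.23 in the second run alone (0.409).

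TGFA, transforming growth factor alpha, gave no call in any comparison (chr2:70674412-70781325). It was at 2.08 and 2.72 FPKM in inhibitor libraries, against 2.16 and 1.65 FPKM in inhibitor controls, and these overlapped. siRNA libraries had 2.25 and 2.25 FPKM, against 2.04 and 1.98 FPKM in siRNA controls, with no overlap. The log2 fold changes were 0.22 ± 0.14 with the inhibitor (limma adjusted p = 0.248) and 0.11 ± 0.14 with the siRNA (limma adjusted p = 0.703). Implied fragments ran from 5.1 to 73.7 per library, and the 95% interval for the siRNA runs from -0.21 to 0.43.

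In the fit of all 4 groups with all libraries, both runs and scaling, the receptors gave no call in any of the 5 comparisons. Between siRNA control and inhibitor control, ERBB2 was called without scaling, at -0.33 (limma adjusted p = 0.0408), and ERBB3 without scaling, at -0.43 (0.021), and in the first run alone, at -0.61 (0.0197). EGFR, the receptor that EREG, AREG, TGFA, HBEGF and BTC bind, was at 4.91 and 4.42 FPKM in inhibitor libraries, against 5.42 and 5.01 FPKM in inhibitor controls. siRNA libraries had 4.38 and 4.47 FPKM, against 4.21 and 4.46 FPKM in siRNA controls, which overlapped. The log2 fold changes were -0.13 ± 0.10 with the inhibitor (95% interval -0.36 to 0.09, limma adjusted p = 0.326) and 0.02 ± 0.10 with the siRNA (95% interval -0.20 to 0.25, limma adjusted p = 0.92). The EGFR locus, chr7:55086714-55324313 in hg19, overlaps the antisense gene EGFR-AS1, which was at no more than 0.189 FPKM.

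ERBB2, the ligand-less partner receptor, was at 9.84 and 9.69 FPKM in inhibitor libraries, against 9.90 and 10.9 FPKM in inhibitor controls. siRNA libraries had 7.72 and 9.17 FPKM, against 8.12 and 9.65 FPKM in siRNA controls. The siRNA pair overlapped, and the inhibitor libraries lay just below their controls. The log2 fold changes were -0.08 ± 0.11 with the inhibitor (95% interval -0.32 to 0.17, limma adjusted p = 0.605) and -0.07 ± 0.11 with the siRNA (95% interval -0.31 to 0.18, limma adjusted p = 0.779). The ERBB2 locus, chr17:37844167-37886679, overlaps the entries of MIEN1, at 18.5 to 22.8 FPKM, and PGAP3, at 0.811 to 1.90 FPKM. The sources used here do not say that counting used the strand, so reads in shared stretches are uncertain.

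ERBB3, the kinase-impaired partner that binds neuregulins, was at 4.59 and 4.16 FPKM in inhibitor libraries, against 5.97 and 5.87 FPKM in inhibitor controls. siRNA libraries had 3.08 and 3.90 FPKM, against 4.10 and 5.09 FPKM in siRNA controls. In both pairs the treated libraries lay below their controls. Neither difference was called, at -0.37 ± 0.13 with the inhibitor (95% interval -0.66 to -0.07, limma adjusted p = 0.0523) and -0.32 ± 0.13 with the siRNA (95% interval -0.61 to -0.03, limma adjusted p = 0.206). The inhibitor difference passed the threshold in 3 of 13 alternatives, with adjusted p of 0.0427 without scaling, 0.0255 with only its groups in the fit and 0.0369 in the first run alone (limma).

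ERBB3 values are less certain than its level alone would show. Its locus, chr12:56473641-56497289, overlaps the entry RP11-603J24.9 at chr12:56495115-56503073, which in turn reaches into PA2G4. That entry was at 13.6 and 4.08 FPKM in inhibitor libraries, against 2.77e-09 and 0.000403 FPKM in inhibitor controls, and at 17.0 and 11.4 FPKM in siRNA libraries, against 28.0 and 26.5 FPKM in siRNA controls. Cufflinks intervals imply only 11.1 to 61.0 fragments for ERBB3 per library, and its second run was 0.671 to 1.93 times the first. When RP11-603J24.9 was added to ERBB3, an alternative chosen after seeing the data, the log2 fold change for inhibitor against inhibitor control turned to 0.94 ± 0.27 (limma adjusted p = 0.0237), and that for the siRNA was -0.83 ± 0.27 (limma adjusted p = 0.132). These sums follow the RP11-603J24.9 values and are no test of ERBB3. How the reads of this stretch divide between ERBB3, RP11-603J24.9 and PA2G4, which was at 193 to 223 FPKM, cannot be told from the deposited values.

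**Figure D3:**
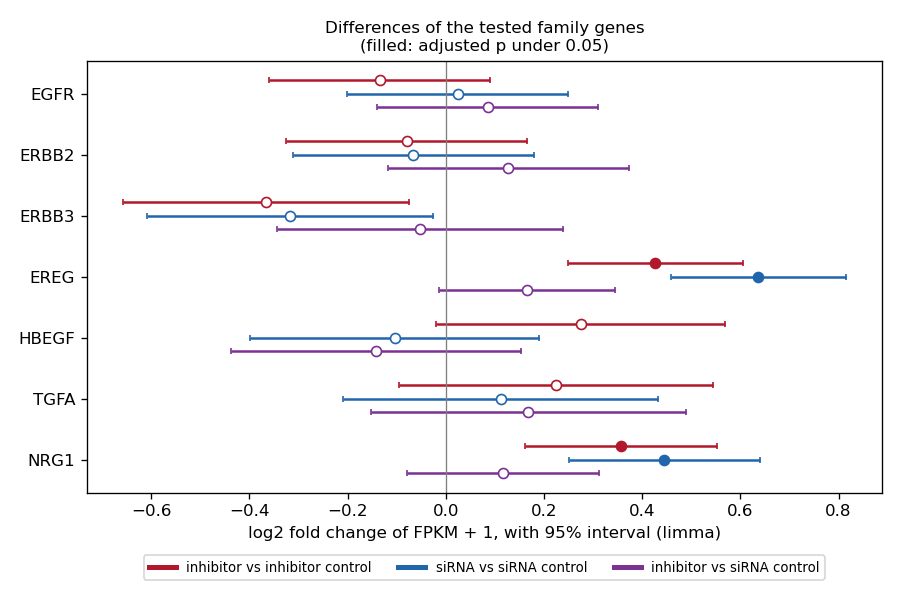
Log2 fold changes of FPKM + 1 with 95% intervals from limma for the 6 tested members and NRG1, in red for inhibitor against inhibitor control, in blue for siRNA against siRNA control and in purple for inhibitor against siRNA control; filled points have an adjusted p under 0.05. EREG and NRG1 are filled for both treatments against their own controls, at 0.43 and 0.64 and at 0.36 and 0.45, and no purple point is filled.

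Over the 6 tested members the median log2 fold change was 0.07 with the inhibitor and -0.02 with the siRNA, beside 0.01 and -0.01 over all tested genes. Against siRNA controls, the inhibitor libraries gave 0 of 6 members called, in a comparison where limma called 7 of 12846 genes and 1598 had an unadjusted p under 0.05. None of the 6 members was called in the difference between the treatment effects, where limma called 1522 genes and 3608 had an unadjusted p under 0.05.

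Of the 7 other receptors and ligands of the family, NRG1 alone was expressed above the filter. NRG1 encodes neuregulin 1, which binds ERBB3 and ERBB4. It was at 11.2 and 10.0 FPKM in inhibitor libraries, against 8.13 and 7.98 FPKM in inhibitor controls. It was at 14.1 and 13.1 FPKM in siRNA libraries, against 10.1 and 9.35 FPKM in siRNA controls. Neither pair overlapped. NRG1 rose by 0.36 ± 0.09 with the inhibitor (limma adjusted p = 0.0115) and by 0.45 ± 0.09 with the siRNA (limma adjusted p = 0.0418), ratios of 1.32 and 1.40. Against siRNA controls the inhibitor difference was 0.12 ± 0.09 (limma adjusted p = 0.599). The siRNA controls were above inhibitor controls by 0.24 ± 0.09 (limma adjusted p = 0.0543), a difference called in 2 of 12 alternatives.

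The NRG1 calls were less stable than those of EREG. The siRNA call was kept in 3 of 12 alternatives, with log2 fold changes of 0.38 to 0.52 and adjusted p from 0.041 to 0.242, and was lost on leaving out siRNA replicate 1 (0.17), siRNA replicate 2 (0.0923) or siRNA control replicate 2 (0.242). The inhibitor call was kept in 8 of 12 and was lost on leaving out inhibitor replicate 1 (limma adjusted p = 0.0913) or inhibitor control replicate 2 (limma adjusted p = 0.0525). Of the rest, ERBB4 was at no more than 0.00368 FPKM, NRG3 was listed at 0 in all libraries, and EGF, EPGN, NRG2 and NRG4 averaged 0.550, 0.373, 0.0461 and 0.830 FPKM.

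Over the 8 libraries EREG and NRG1 correlated at a Pearson r of 0.981 of log2(FPKM + 1), and 7 genes were more like EREG than NRG1 was. The 2 most like EREG were AMN1 (r = 0.990) and DTL (r = 0.987), a substrate receptor of a ubiquitin ligase that acts in the cell cycle. DTL was at 29.4 and 29.6 FPKM in inhibitor libraries, against 25.2 and 25.2 FPKM in inhibitor controls, and at 35.1 and 32.2 FPKM in siRNA libraries, against 27.3 and 27.2 FPKM in siRNA controls. Nearest to EGFR were ESAM (0.992) and MAPK11 (0.981), to ERBB2 GPR110 (0.978) and ABHD12 (0.965), and to ERBB3 NEURL4 (0.991) and TRAP1 (0.990). Nearest to HBEGF were MIER3 (0.974) and NARS (0.974), and to TGFA RP11-114H23.1 (0.932) and ZNF436 (0.922). These r values describe 8 libraries that share 4 groups.

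No gene of ligand shedding was called higher with either treatment. Among all tested genes 17.6% were called higher with the inhibitor and 0.802% with the siRNA. Of 10 listed genes 7 were tested, and 2 were called lower with the inhibitor, where 18.8% of all genes were called lower. None was called with the siRNA, where 2.15% of all genes were called in either direction (0 of 7, in a comparison with 2668 of 12846 genes at an unadjusted p under 0.05). ADAM10, which sheds BTC and EGF in mouse cells, fell to 9.44 and 10.3 FPKM in inhibitor libraries, against 17.4 and 16.9 FPKM in inhibitor controls (log2 fold change -0.74 ± 0.08, limma adjusted p = 0.000283). Its siRNA libraries had 8.47 and 8.53 FPKM, against 9.80 and 8.87 FPKM in siRNA controls, and the inhibitor controls were the only libraries above 11 FPKM. RHBDF2, which escorts the sheddase ADAM17, fell by 0.37 ± 0.10 with the inhibitor (log2; limma adjusted p = 0.0206), a call kept in 6 of 12 alternatives. It was lost without inhibitor replicate 2 (limma adjusted p = 0.14), inhibitor control replicate 1 (0.101) or inhibitor control replicate 2 (0.054), with low genes kept in the test (0.071) and under quantile normalization (0.0525), and the first run alone gave -0.11 (0.686). ADAM17 itself, which sheds EREG, AREG, HBEGF and TGFA in mouse cells, was at 9.01 and 9.18 FPKM in inhibitor libraries, against 8.43 and 8.25 FPKM in inhibitor controls, and at 8.33 and 8.20 FPKM in siRNA libraries, against 9.31 and 8.65 FPKM in siRNA controls. The medians of the shedding genes were -0.01 with the inhibitor and -0.12 with the siRNA.

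Of 28 genes listed for signalling close to the receptors, not all of which promote it, 27 were tested. With the inhibitor 1 was called higher and 10 lower, where 17.6% of all genes were called higher and 18.8% lower. The median log2 fold change was -0.19. With the siRNA none was called, where 2.15% of all genes were called in either direction, and the median was -0.06. MAP2K1, a kinase that activates the MAP kinases, was at 11.7 and 11.8 FPKM in inhibitor libraries, against 21.1 and 19.8 FPKM in inhibitor controls (log2 fold change -0.75 ± 0.08, limma adjusted p = 0.000302). Its siRNA libraries had 8.83 and 9.68 FPKM, against 11.6 and 10.2 FPKM in siRNA controls. MAPK3, a MAP kinase that MAP2K1 activates, differed by -0.69 ± 0.10 with the inhibitor (limma adjusted p = 0.000865). The 1 gene called higher was NRAS, at 0.30 ± 0.06 (limma adjusted p = 0.00391), named after its values were seen; without scaling it was 0.29 and not called (limma adjusted p = 0.0806). All of these fold changes were of about the same size between siRNA controls and inhibitor controls, where they were -0.85 for MAP2K1, -0.68 for MAPK3 and 0.30 for NRAS. Inhibitor libraries set against siRNA controls gave 0.10 for MAP2K1, -0.01 for MAPK3 and 0.00 for NRAS. None of the 27 was called there, where 0.0545% of all genes were called.

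The last list held genes that restrain, ubiquitinate or internalise the receptors, 25 of 26 tested. With the inhibitor none was called higher and 5 lower, with a median of -0.01, where 17.6% of all genes were called higher and 18.8% lower. RAB7A, which acts in late endosomes, was at 11.9 and 10.8 FPKM in inhibitor libraries, against 45.3 and 44.2 FPKM in inhibitor controls (log2 fold change -1.89 ± 0.11, limma adjusted p = 1.07e-05), but its siRNA libraries and siRNA controls lay between 8.03 and 12.1 FPKM. The others were SH3KBP1 (-0.54), STUB1 (-0.49) and, outside the naming rule and named after their values were seen, GRB10 (-0.21) and ERRFI1 (-0.17). The SH3KBP1 call was lost in the second run alone, at -0.36 (limma adjusted p = 0.161), and the STUB1 call in the first run alone, at -0.23 (0.16). The GRB10 and ERRFI1 calls were lost whichever inhibitor or inhibitor control library was left out, with adjusted p from 0.112 to 0.183 for GRB10 and from 0.0877 to 0.126 for ERRFI1 (limma). None of these 25 was called between inhibitor and siRNA control, where 0.0545% of all genes were called.

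**Figure D4:**
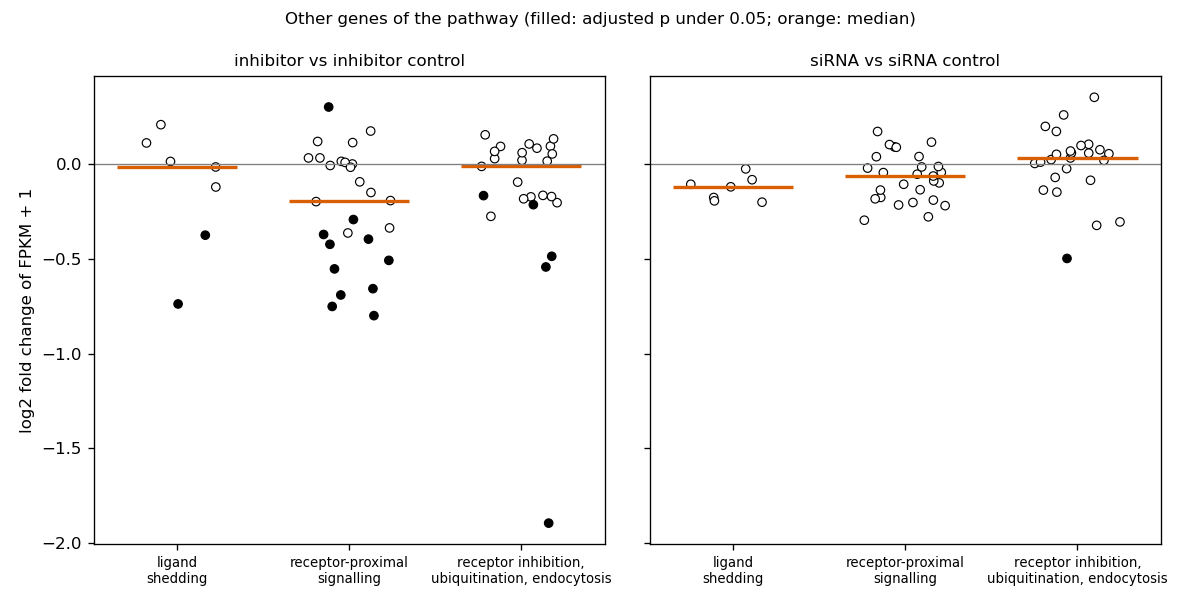
Log2 fold changes of FPKM + 1 for the 7 shedding, 27 signalling and 25 receptor-restraining genes tested, with the inhibitor on the left and the siRNA on the right, each against its own control; filled points have a limma adjusted p under 0.05 and orange bars are medians. The left panel has 18 filled points, 17 of them below 0, and the right panel has 1, ERRFI1 at -0.50.

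ERRFI1 is a feedback inhibitor that binds the kinase domain of EGFR and ERBB2. It was the only gene of the shedding, signalling and receptor-restraining lists called with the siRNA. It fell to 43.0 and 45.1 FPKM in siRNA libraries, against 62.9 and 62.4 FPKM in siRNA controls, a log2 fold change of -0.50 ± 0.05 (limma adjusted p = 0.00649), in a comparison where 1.35% of all genes were called lower. This call was kept under all 12 alternatives, with adjusted p from 0.00643 to 0.0485. Inhibitor libraries had 66.4 and 67.2 FPKM, against 75.3 and 74.8 FPKM in inhibitor controls (-0.17 ± 0.05, limma adjusted p = 0.0272), and against siRNA controls the inhibitor difference was 0.09 ± 0.05 (limma adjusted p = 0.474).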

How the data were processed

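Total RNA of HCT116 cells was sequenced in 8 libraries of 4 groups, each in 2 runs, from stranded total RNA libraries on a HiSeq-2000 (labels' protocols). The files hold FPKM per gene with confidence bounds, as the authors deposited them from Cufflinks, per the file headers. STAR 2.3.0e, SAMtools 0.1.19 and build hg19 are named in the submitters' processing notes. No source used here gives the Cufflinks version, the annotation or any use of strand in counting. The fibroblast markers were examined because the labels' protocols also mention foreskin fibroblasts.

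Each file lists 63784 entries, of which 131 repeat an identifier and were added to the first. One gene that Cufflinks marked as not reliably estimated in all 16 runs was left out. The 8 genes matched 10 entries, of which 2 on alternate sequences were at 0 in all runs. The runs of a library were averaged and library values were divided by median-of-ratios factors (0.878 to 1.09). log2(FPKM + 1) was fitted with limma 3.58.1 in R 4.3.3, with a mean-variance trend and all 4 groups in 1 fit (4 residual and 5.04 prior degrees of freedom). Genes needed a mean deposited FPKM of at least 1 and a locus of at least 300 bases. Adjusted p is Benjamini-Hochberg over 12846 genes, two-sided. Fold changes on this scale understate those of low genes, and ± is the SE. The files hold no counts, so fragments and depth were implied from the Cufflinks intervals, taken as counting error alone. Values were also simulated for 4 groups of 2 libraries, as random noise around each gene's mean with a smoothed spread. They did not use the libraries' own deviations. Among 12846 genes, 100 were changed by 0.5 and 100 by 1 (log2, up or down), in the siRNA group alone. There the siRNA comparison recovered 32% of changes of 0.5 and 82% of changes of 1, and called 6 unchanged genes. No other difference between groups was simulated, unlike in the data, so these shares may not carry over.

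The genes, lists and tests were chosen with earlier results of these data known. Genes named are EHMT2, the 8 members, AREGB, overlapping genes, up to 3 called genes of each list and comparison with the largest change and a mean of at least 5 FPKM in a group, and the 2 most correlated genes of each tested member. One item under this rule is not reported here. Alternatives were a pseudocount of 0.1, no filter, no scaling, quantile normalization, only the groups compared, the replicate number as a block, each library left out, each run alone, AREG and AREGB summed and, added later, ERBB3 and RP11-603J24.9 summed. When a library is left out, its group's other library is taken to vary like the rest. Motifs were searched in RefSeq promoters (GRCh38.p14), whose coordinates were not mixed with hg19.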

Additional observations from a re-analysis of the deposited data

Results flagged for a closer look

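For 10 of the named genes the effects of the inhibitor and of the siRNA, each against its own control, differed in the test of the difference itself (inhibitor effect minus siRNA effect, log2, limma adjusted p under 0.05). None of the 6 tested members and not NRG1 was among them. Most of the 10 were named because they were called with large changes in comparisons that share these libraries. Their count is therefore no independent result, and 11.8% of all tested genes were called in the difference. EHMT2 differed by 1.44 ± 0.13 (adjusted p = 0.00078), from -0.23 with the inhibitor and -1.67 with the siRNA. ERRFI1 differed by 0.33 ± 0.07 (0.0189), from -0.17 and -0.50. NRAS differed by 0.49 ± 0.08 (0.00832), from 0.30 and -0.19. RAB7A differed by -1.59, VAV2 by -0.75, SH3KBP1 by -0.72, STUB1 by -0.69, ADAM10 by -0.62, MAPK3 by -0.56 and MAP2K1 by -0.54. In the last 7 the inhibitor libraries lay below the inhibitor controls, and the same genes were lower in siRNA controls than in inhibitor controls, by -0.67 for STUB1 to -1.89 for RAB7A. The part of the inhibitor controls in these differences was not tested.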

How the results depend on the processing

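The EREG call with the inhibitor and the ERRFI1 call with the siRNA were kept under every alternative run. The EREG call with the siRNA kept its direction and was lost with no filter on low values (limma adjusted p = 0.0726), only the groups compared (0.0516), the first run alone (0.0546), the second run alone (0.053), and without siRNA replicate 1 or siRNA control replicate 2; the cause was not tested. The correlation of same-numbered libraries' deviations ran from -0.0977 to 0.048, so the numbers were not taken as pairs. With the replicate block, 68 genes were called with the siRNA against 276 without it, EREG stayed called, and NRG1 with the siRNA had an adjusted p of 0.0606. Implied fragments were few for AREG, BTC, TGFA and ERBB3. Their median per library was 17.1 for ERBB3 and 146.4 for EGFR, at similar mean levels of 4.60 and 4.66 FPKM. They take the Cufflinks intervals as counting error alone, and what widens these intervals was not tested.

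Genes called for inhibitor against inhibitor control were 4676, with 2992 under no filter, 3112 without scaling and 2669 to 3470 with a library left out. Members called were 1, but 2 without scaling, with only the groups compared and in the first run alone, where ERBB3 joined EREG. For siRNA against siRNA control, genes called were 276, with 5 under no filter, 134 without scaling, 24 with only the groups compared, 31 in the first run, 39 in the second and 11 to 429 with a library left out (20 without siRNA replicate 1, 72 without siRNA replicate 2, 429 without siRNA control replicate 1, 11 without siRNA control replicate 2). Members called were 1, but 0 under no filter, with only the groups compared, in either run alone and with some libraries left out (0 to 1). For inhibitor against siRNA control, genes called were 7, with 4 at a pseudocount of 0.1, 0 under no filter, 32 without scaling, 4 with only the groups compared, 1 in the first run, 2 in the second and 0 to 43 with a library left out. For siRNA control against inhibitor control, genes called were 4911, with 3243 under no filter and 3215 in the first run. Members called were 2, but 0 under no filter, with only the groups compared, in the second run and with some libraries left out (0 to 2). Without scaling they were also 2 but other genes, since EREG and HBEGF lost their calls and ERBB2 and ERBB3 were called lower, and in the first run they were 3, EREG and HBEGF with ERBB3 lower. For the difference between the effects, genes called were 1522, with 248 under no filter, 738 without scaling, 544 in the first run, 685 in the second and 489 to 1485 with a library left out.

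ERBB3 with RP11-603J24.9 added turned to 0.94 with the inhibitor (limma adjusted p = 0.0237) and 2.25 for siRNA control against inhibitor control (0.000378). For the difference between the effects it turned to 1.77 (0.0208). This sum was chosen after seeing the data and follows the RP11-603J24.9 values, so it is no test of ERBB3. Other changes of sign were all in values that were not called. With the siRNA, EGFR gave -0.022 without scaling and -0.053 in the second run, and ERBB2 0.013 in the first run. For inhibitor against siRNA control, ERBB3 gave 0.048 without scaling and 0.086 in the first run, and EGFR -0.0028 in the second run. For siRNA control against inhibitor control, TGFA gave -0.034 without scaling and -0.043 in the second run. For the difference between the effects, ERBB2 gave 0.024 without scaling, 0.031 under quantile normalization and 0.097 in the second run, ERBB3 0.032 under quantile normalization and 0.33 in the second run, TGFA -0.051 in the second run and NRG1 0.076 in the first run. With a library left out, the siRNA values ran from -0.18 to 0.046 for ERBB2, -0.21 to 0.0035 for HBEGF and -0.009 to 0.057 for EGFR. For inhibitor against siRNA control ERBB3 ran from -0.18 to 0.076, and for siRNA control against inhibitor control TGFA ran from -0.069 to 0.18. For the difference between the effects, ERBB2 ran from -0.13 to 0.098, ERBB3 from -0.18 to 0.081 and TGFA from -0.024 to 0.25.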
